A study of Mus musculus with 40 samples.

Results

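The p53 target genes followed here are Cdkn1a, Mdm2, Ccng1, Bax, Bbc3, Pmaip1, Trp53inp1, Phlda3, Sesn1 and Zmat3, taken by symbol from the deposited expression table of 23812 rows. All 10 were found, each in 1 row. The table covers 40 mouse RNA sequencing libraries in 10 groups of 4. The study asked how sensory neurons that express the receptor MrgprD, and the glutamate they release, act on mast cells of the skin.

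Whole ear skin came from MrgprdDTR mice, which carry Cre at the Mrgprd locus and Cre-dependent human HBEGF (the diphtheria toxin receptor, DTR) at Rosa26, and from MrgprdCre mice, which carry the Cre allele alone. Both of these groups therefore share the Mrgprd Cre allele. The protocol gives diphtheria toxin (DT) for 3 to 4 weeks to both genotypes, while the treatment label of the Cre samples lists only acetone and olive oil, which the DTR samples also received. Skin also came from C57BL/6J mice whose ears were treated with 50 mM β-alanine, an agonist of MrgprD, or PBS for 2 days. Mast cells were sorted from MrgprdDTR and MrgprdCre mice. Peritoneal-derived mast cells of C57BL/6J mice were cultured for 6 h in Tyrode's buffer free of glutamate with 4 mM glutamate or vehicle, and for 48 h with 50 uM NS102, a kainate receptor antagonist, or vehicle. The labels give no ages for these groups, and they do not say whether replicates are separate animals or cultures, so p-values measure the spread between these libraries, which may be technical.

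The transcription factor p53, encoded by Trp53 in the mouse, is stabilised by DNA damage and other stress and binds response elements near its target genes. Cdkn1a encodes the kinase inhibitor p21, which holds cells before S phase, and Ccng1 encodes cyclin G1. Mdm2 encodes the ubiquitin ligase that degrades p53 and so closes a feedback loop. Bax, Bbc3 (PUMA) and Pmaip1 (NOXA) act in mitochondrial apoptosis. Trp53inp1, Phlda3, Sesn1 and Zmat3 act in stress signalling, repression of Akt, nutrient and redox control, and RNA processing. Each of these genes also answers to other regulators, so transcript level is no measure of p53 activity by itself.

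A p53 response element is made of adjacent half-sites of a palindromic consensus, which reads the same on both strands. RefSeq promoter windows (GRCm38.p6, 250 bases before to 50 after an annotated start) were used for 7 of the 10 genes, as 11 windows. They were searched with the p53 half-site consensus for 2 adjacent half-sites and, as a looser rule, for 2 half-sites with a spacer of up to 13 bases. The windows of Cdkn1a, Ccng1 and Bax are shown because results below turn on these genes. Capitals mark the best adjacent site in each window, and every window is given 5′ to 3′ on the strand of its gene.

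Cdkn1a, upstream start, chr17:29090729-29091028, plus strand: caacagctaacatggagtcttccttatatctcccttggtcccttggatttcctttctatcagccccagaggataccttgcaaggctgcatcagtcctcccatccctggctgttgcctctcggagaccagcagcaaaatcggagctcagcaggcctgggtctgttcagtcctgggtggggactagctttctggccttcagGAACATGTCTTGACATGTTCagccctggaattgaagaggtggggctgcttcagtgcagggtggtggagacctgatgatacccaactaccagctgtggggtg
Ccng1, chr11:40755237-40755536, minus strand: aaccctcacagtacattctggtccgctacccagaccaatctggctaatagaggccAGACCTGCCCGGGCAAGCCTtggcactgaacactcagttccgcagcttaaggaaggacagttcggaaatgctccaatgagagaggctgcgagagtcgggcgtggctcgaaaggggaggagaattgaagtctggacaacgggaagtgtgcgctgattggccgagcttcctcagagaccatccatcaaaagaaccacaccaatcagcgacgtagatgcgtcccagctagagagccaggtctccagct
Bax, chr7:45466849-45467148, minus strand: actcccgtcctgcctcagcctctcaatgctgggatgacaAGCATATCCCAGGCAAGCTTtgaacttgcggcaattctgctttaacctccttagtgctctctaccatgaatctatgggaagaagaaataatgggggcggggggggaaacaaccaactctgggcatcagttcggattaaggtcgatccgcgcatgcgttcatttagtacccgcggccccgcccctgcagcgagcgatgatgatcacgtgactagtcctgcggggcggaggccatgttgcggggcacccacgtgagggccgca

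The Cdkn1a window holds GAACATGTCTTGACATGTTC at bases -51 to -32 from the start, with 1 mismatch to 2 adjacent half-sites. This start lies 2790 bases upstream of the other annotated Cdkn1a start, and the site begins 2841 bases before that downstream start. The Ccng1 window holds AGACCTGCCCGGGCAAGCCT at bases -195 to -176, also with 1 mismatch. Of 32851 promoter windows of the same length, 29 held an adjacent site with as few mismatches, or 0.0883%. At the downstream Cdkn1a start the best adjacent site had 5 mismatches, and 76.6% of all windows held one with 5 or fewer. In the Bax window and in those of the other members the best adjacent site had 3 or more mismatches, and 6.29% of all windows held one with 3 or fewer. Under the looser rule the Cdkn1a window holds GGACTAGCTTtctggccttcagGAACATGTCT at bases -73 to -42, with 0 mismatches and a spacer of 12 bases, and it shares a half-site with the adjacent site. As few mismatches under that rule were found in 0.0731% of all windows. The Bax window then holds AAGCATATCCcAGGCAAGCTT at bases -212 to -192, with 1 mismatch and a spacer of 1 base, and 1.09% of all windows match as well. These matches describe the letters in the windows and are not evidence of binding.

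Across the libraries, total FPKM (fragments per kilobase of transcript and per library total, a level corrected for length) ranged from 117574 to 508485, and the sorted cells gave the lowest totals. The table gives no counts, so depth is unknown and values carry no counting interval. All 10 mast cell markers averaged at least 1 FPKM in every sorted and cultured group, and all 7 keratinocyte markers did so in every skin group. In each cultured group 6 of 7 keratinocyte markers were at 0 in every library. All 5 fat and all 6 muscle markers averaged at least 1 FPKM in skin, so the skin libraries, labelled Epidermal, hold more than epidermis. The median coefficient of variation of the 10 genes over 4 replicates was 24.9% in sorted DTR and 34.4% in sorted Cre cells, against 4.75% to 8.55% in the other groups, so changes in sorted cells were measured least precisely. Fewer cells of a type and less RNA per cell cannot be told apart in these bulk libraries.

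Every one of the 10 genes had a mean above 0 FPKM in skin, sorted mast cells and cultured mast cells, but at different levels. In sorted Cre cells Zmat3 lay near the floor, at 0.277, 0.0554, 0.15 and 0 FPKM. Phlda3 did so there in all libraries but replicate 4, at 0.0501, 0.0225, 0.444 and 4.62 FPKM. Cdkn1a (mm9, chromosome 17, 29227930 to 29237667) averaged 122 FPKM in DTR and 117 FPKM in Cre skin, and 137 FPKM in β-alanine and 155 FPKM in PBS skin. It averaged 28.9 FPKM in sorted DTR and 33.6 FPKM in sorted Cre cells. Cultured cells had 105 FPKM with glutamate and 67.9 FPKM with vehicle at 6 h, and 178 FPKM with NS102 and 108 FPKM with vehicle at 48 h. In order of level as deposited, NS102 culture came first, then PBS, β-alanine, DTR and Cre skin. After these came 48 h vehicle, glutamate, 6 h vehicle, and sorted Cre and DTR cells. The ranges of DTR and Cre skin overlapped, as did those of Cre skin and 48 h vehicle and of 48 h vehicle and glutamate. Those of both sorted groups overlapped too. The other neighbours in this order did not. When every library was set to equal total FPKM, 3 of the 45 pairs of groups changed order for Cdkn1a. Sorted Cre and DTR cells, at means of 182 and 180.6 on that scale, then lay above 6 h vehicle, at 177.3. The place of sorted cells below 6 h vehicle thus rests on the scaling.

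Bax (chromosome 7, 52717064 to 52722268) and Ccng1 (chromosome 11, 40562053 to 40568788) were highest in 48 h vehicle culture, at 132 ± 3.31 and 44.1 ± 4.43 FPKM (SD, n = 4). With every library set to equal total FPKM, Bax was level between NS102 and 48 h vehicle culture. Bbc3 (chromosome 7, 16894931 to 16903683) had the same highest mean in NS102 culture, at 27.4 ± 3.04 FPKM, and in 6 h vehicle culture, at 27.4 ± 1.89 FPKM. Pmaip1 (chromosome 18, 66618257 to 66625212) peaked in glutamate culture, at 4.76 ± 0.386 FPKM. These genes of the cell death and cyclin groups thus had their highest mean in cultured mast cells.

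Trp53inp1 (chromosome 4, 11083587 to 11101524), Phlda3 (chromosome 1, 137662661 to 137665711) and Sesn1 (chromosome 10, 41530379 to 41628242) were highest in Cre skin, at 15.3 ± 0.778, 59.3 ± 3.92 and 23.7 ± 1.03 FPKM. Zmat3 (chromosome 3, 32233715 to 32264587) was highest in DTR skin, at 5.75 ± 0.691 FPKM, and stayed under 1 FPKM in every sorted and cultured library. The ratio of the highest to the lowest group mean, as deposited, ran from 2.12 for Mdm2 (chromosome 10, 117125960 to 117147772) to 50.6 for Phlda3. Mdm2 had the narrowest range and its order rested most on scaling. With every library set to equal total FPKM, 28 of its 45 pairs of groups changed order. In the other genes 1 to 11 pairs did. The lowest group, sorted DTR cells as deposited, then changed for Mdm2, Cdkn1a, Bax, Bbc3, Trp53inp1, Phlda3 and Sesn1, so these ratios rest on the scaling too. The 4 genes highest in skin stayed highest in skin after this scaling.

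**Figure D1:**
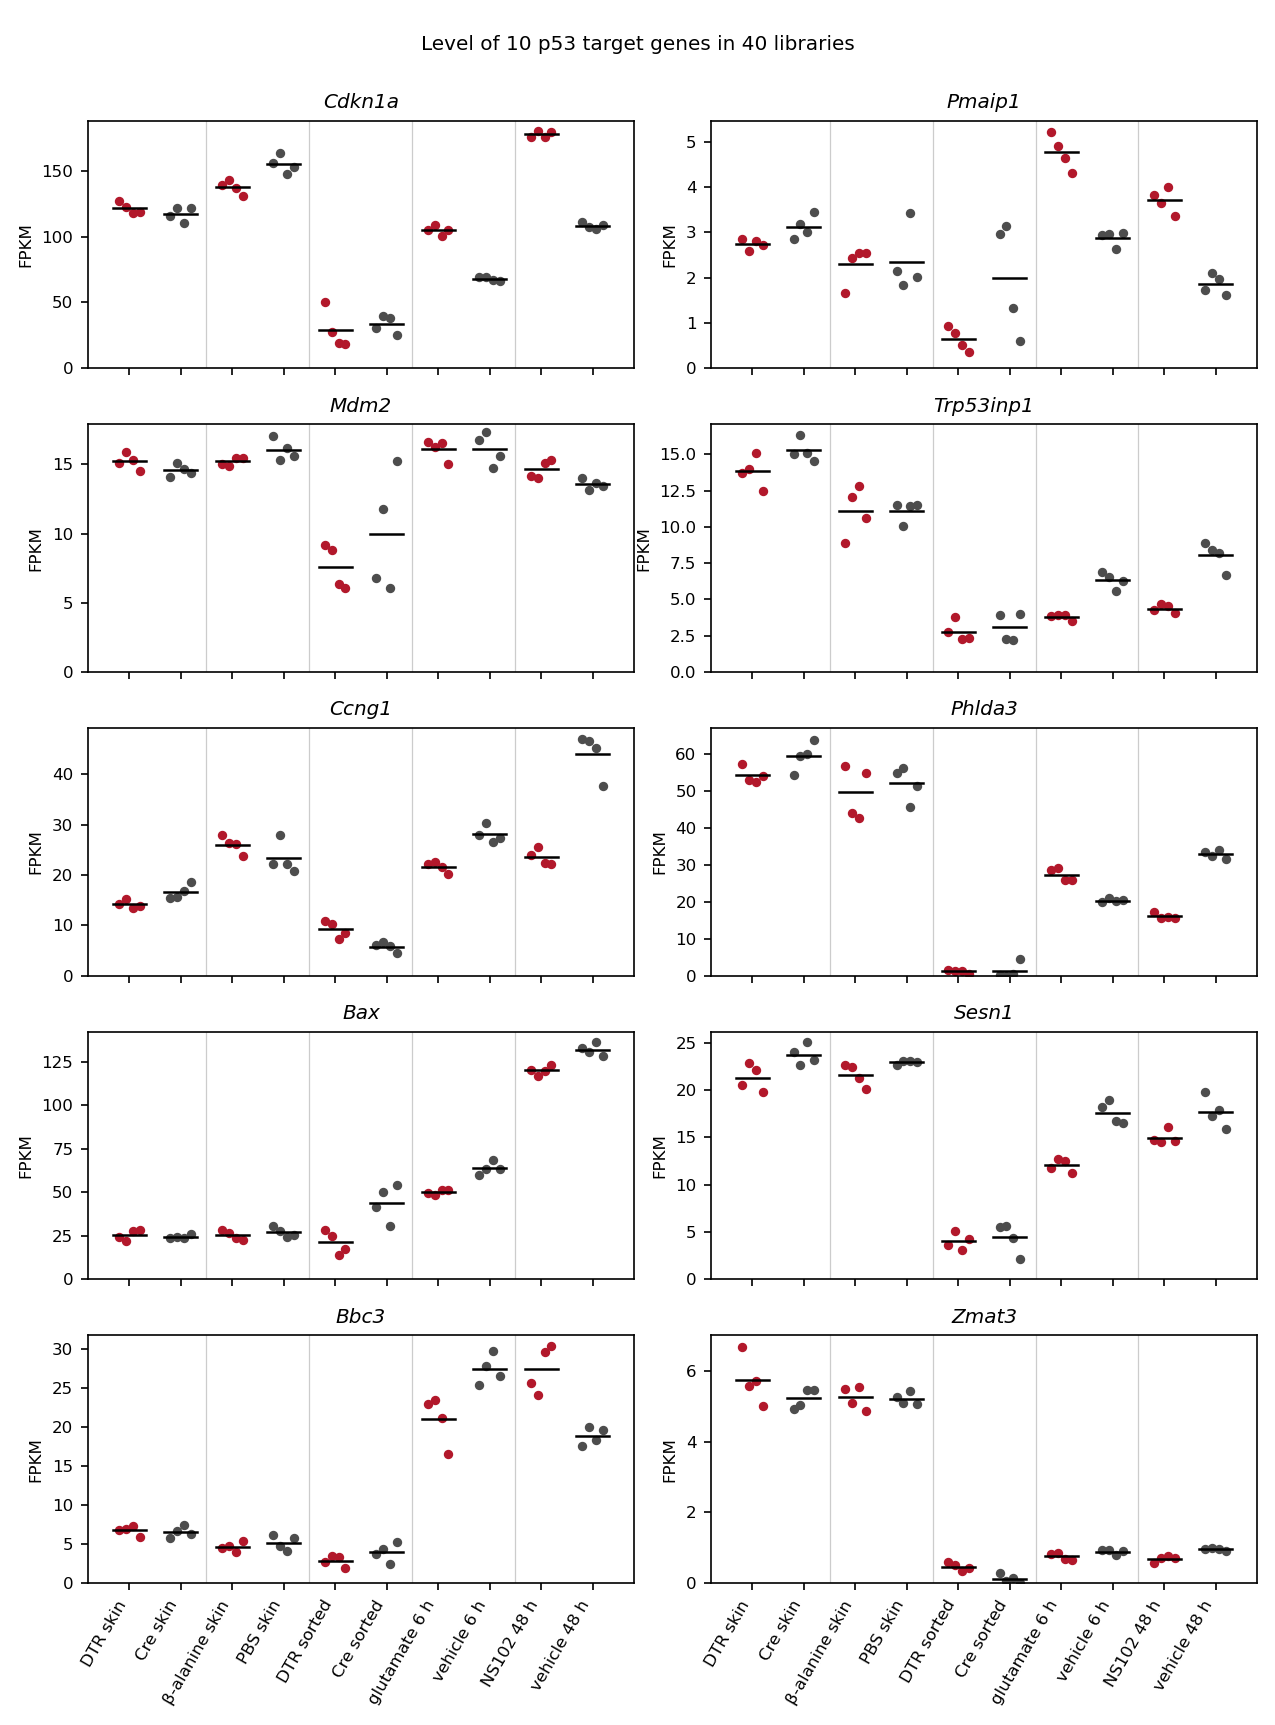
FPKM of each p53 target gene (linear vertical axes from 0, a scale per gene) in each of 40 libraries, with DTR, β-alanine, glutamate and NS102 libraries in red, their controls in grey and group means as black lines. Cdkn1a reached 178 FPKM with NS102, while Phlda3 and Zmat3 were high in skin and low in sorted cells.

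Glutamate given to cultured mast cells for 6 h raised Cdkn1a, Pmaip1 and Phlda3 and lowered Trp53inp1, Sesn1, Ccng1, Bbc3 and Bax. Each comparison was tested with limma on log2(FPKM + 1), and genes with an adjusted p under 0.05 count as past the test. Of the 9 p53 targets that passed the filter on low values, 8 were past it, in a comparison where 79.3% of 8297 genes were, so a share that high is near the background. Of the 9, 3 were higher and 5 lower, while 16.9% of all genes were higher and 62.4% lower. Over all genes the median log2 change stood at -0.33, and over the 9 targets at -0.34.

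Cdkn1a, the p21 gene, had 105.3, 108.9, 100.6 and 105.2 FPKM in glutamate libraries, against 69.7, 69.1, 66.7 and 66.2 FPKM in vehicle libraries. All 4 glutamate libraries lay above all 4 vehicle libraries. The log2 change was 0.62 (SE 0.036, limma adjusted p = 4.28e-09), or 0.95 relative to the median gene. Pmaip1, which encodes the BH3-only protein NOXA, had 5.22, 4.89, 4.63 and 4.31 FPKM with glutamate, against 2.94, 2.95, 2.62 and 2.99 FPKM with vehicle. Its groups did not overlap either, and the log2 change was 0.57 (SE 0.071, limma adjusted p = 6.43e-06). Phlda3, whose product competes with Akt for membrane lipids, had 28.7, 29, 25.7 and 25.8 FPKM with glutamate, against 19.8, 21, 20.1 and 20.3 FPKM with vehicle. That rise, again without overlap, was 0.41 on the log2 scale (SE 0.05, limma adjusted p = 6.24e-06).

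Trp53inp1, a stress protein that promotes p53-dependent arrest and death, fell most. It had 3.88, 3.91, 3.95 and 3.51 FPKM with glutamate, against 6.91, 6.54, 5.59 and 6.25 FPKM with vehicle, a log2 change of -0.60 (SE 0.071, limma adjusted p = 3.97e-06). Sesn1, an inhibitor of mTORC1 signalling, averaged 12.1 ± 0.695 FPKM with glutamate and 17.6 ± 1.16 FPKM with vehicle (log2 change -0.51). Ccng1 averaged 21.6 ± 1.06 FPKM with glutamate and 28.1 ± 1.64 FPKM with vehicle (log2 change -0.36). The death genes Bax, at 50.3 ± 1.38 FPKM with glutamate and 63.8 ± 3.36 FPKM with vehicle, and Bbc3, at 21 ± 3.16 FPKM with glutamate and 27.4 ± 1.89 FPKM with vehicle, fell by 0.34 and 0.38 on the log2 scale. In all of these genes every glutamate library lay below every vehicle library, and groups did not overlap for 8 of the 9 tested targets, as for 74.3% of all genes.

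Set against the shift of all genes, most of these falls lay close to the median gene. After each library was centred on its median, Ccng1 (0.049), Bax (0.076) and Bbc3 (0.036) turned to small positive log2 changes that were not past the limma test (adjusted p = 0.306, 0.215 and 0.706). Sesn1 kept its sign but was no longer past it (adjusted p = 0.0945), and Trp53inp1 remained lower (log2 change -0.19, limma adjusted p = 0.0116). Mdm2, at 16.1 ± 0.756 FPKM with glutamate and 16.1 ± 1.17 FPKM with vehicle, did not pass as deposited (limma adjusted p = 0.973) but was 0.33 above the median gene and past the centred test (adjusted p = 6.1e-06). Centred, 4 of 9 targets were higher and 1 lower, where 44.6% of all genes were higher and 31.5% lower. Zmat3 was below the filter, at 0.756 ± 0.105 FPKM with glutamate and 0.894 ± 0.0669 FPKM with vehicle.

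Other genes of the pathway split as well. Of 16 tested among 26 other p53 targets, 6 rose, 7 fell and 3 did not pass, where 16.9% of all genes rose and 62.4% fell. The median log2 change of these targets was -0.10, or 0.23 above that of all genes. After centring 10 were higher and 4 lower, where 44.6% of all genes were higher and 31.5% lower. Gadd45a, a stress sensor of growth arrest, had 33.9, 33.2, 34 and 36.1 FPKM with glutamate, against 14.2, 13.8, 13.2 and 13.6 FPKM with vehicle (log2 change 1.26, limma adjusted p = 6.51e-11). Ei24 (13.6 FPKM with glutamate, 24.6 FPKM with vehicle) and Dcxr (14.9 FPKM with glutamate, 25.9 FPKM with vehicle) fell. Trp53 itself fell to 24.9 ± 1.08 FPKM with glutamate, against 33.8 ± 1.24 FPKM with vehicle, which lay 0.10 below the median gene and was not past the centred limma test (adjusted p = 0.76). Chek2, a DNA damage checkpoint kinase, fell to 1.28 ± 0.145 FPKM with glutamate, against 8.22 ± 0.232 FPKM with vehicle. It was among 3 of 5 tested regulators that fell, near the 62.4% of all genes that did. The acetyltransferase gene Kat5 fell as deposited (6.07 FPKM with glutamate, 8.1 FPKM with vehicle) and was not past the centred test (limma adjusted p = 0.514). The other 2 rose, including Rchy1, a ubiquitin ligase gene of p53 (31.4 FPKM with glutamate, 27.3 FPKM with vehicle).

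In the BCL2 family 1 of 9 tested genes rose and 5 fell as deposited, where 16.9% of all genes rose and 62.4% fell. After centring 3 were higher and 4 lower, where 44.6% of all genes were higher and 31.5% lower. The BCL2 family genes that fell included the BH3-only genes Bad (11 FPKM with glutamate, 25.7 FPKM with vehicle), Bid (5.7 FPKM with glutamate, 15.4 FPKM with vehicle) and Bcl2l11 (2.62 FPKM with glutamate, 5.77 FPKM with vehicle). Among 10 tested genes of CDK inhibitors and G1 cyclins 5 rose and 3 fell as deposited. After centring 9 were higher and 1 lower. The shares of all genes are those just given. Cdk6, a G1 kinase, averaged 25.6 ± 1.5 FPKM with glutamate and 7.46 ± 0.318 FPKM with vehicle, and Cdkn2d, the inhibitor p19, averaged 34.1 ± 0.911 FPKM with glutamate and 23.7 ± 0.939 FPKM with vehicle. Ccnd2 fell (19.5 FPKM with glutamate, 28.4 FPKM with vehicle), and Cdk4 fell as deposited (57.7 FPKM with glutamate, 65.8 FPKM with vehicle) but was higher after centring (log2 change 0.23). The summed level of the 5 proliferation markers was 36.7 to 38.3 FPKM with glutamate and 41 to 45.3 FPKM with vehicle, and that of the 10 mast cell markers 92500 to 94440 FPKM with glutamate and 67990 to 70640 FPKM with vehicle. The protease gene Tpsb2 carried most of that sum, at 53600 FPKM with glutamate and 38220 FPKM with vehicle. Other markers of the list went the opposite way, with Kit at 191 FPKM with glutamate and 397 FPKM with vehicle, Ms4a2 at 85.2 FPKM with glutamate and 165 FPKM with vehicle, and Mrgprb2 at 46.4 FPKM with glutamate and 87.6 FPKM with vehicle. Their part in these changes was not tested.

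NS102 given for 48 h raised Cdkn1a, Pmaip1 and Bbc3 and lowered Phlda3, Ccng1, Trp53inp1, Sesn1 and Bax. Of 9 tested targets 8 were past the test, 3 higher and 5 lower, where 70.5% of 8373 genes were, 30.8% higher and 39.7% lower. The shares are again close to those of all genes. The median log2 change was -0.13 for the targets and -0.057 for all genes, and centring left the calls of all 9 as they were, where 31.2% of all genes were then higher and 41.4% lower.

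Cdkn1a had 176.1, 180.3, 176.2 and 179.6 FPKM with NS102, against 111.1, 107.6, 105.9 and 109.1 FPKM with vehicle. The groups lay far apart for their spread, with a log2 change of 0.71 (SE 0.043, limma adjusted p = 5.96e-08). Pmaip1 had 3.82, 3.64, 4.01 and 3.36 FPKM with NS102, against 1.73, 2.09, 1.98 and 1.61 FPKM with vehicle (log2 change 0.72, SE 0.081, limma adjusted p = 6.89e-06). Bbc3, which encodes the BH3-only protein PUMA, had 25.6, 24, 29.6 and 30.3 FPKM with NS102, against 17.5, 20.03, 18.3 and 19.6 FPKM with vehicle (log2 change 0.51, SE 0.078, limma adjusted p = 8.69e-05). For both BH3-only genes every NS102 library was above every vehicle library.

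Phlda3 moved the other way, with 17.1, 15.6, 15.9 and 15.7 FPKM in NS102 libraries, against 33.4, 32.3, 34 and 31.6 FPKM in vehicle libraries. This log2 change of -0.99 (SE 0.053, limma adjusted p = 2.5e-08) was the largest among the 9 targets here. Ccng1 had 24.1, 25.6, 22.4 and 22.1 FPKM with NS102, against 47.1, 46.6, 45.2 and 37.6 FPKM with vehicle (log2 change -0.88, SE 0.076, limma adjusted p = 9.87e-07). Trp53inp1 averaged 4.37 ± 0.27 FPKM with NS102 and 8.03 ± 0.938 FPKM with vehicle, a log2 change of -0.75. In these genes no NS102 library reached the lowest vehicle library.

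Smaller falls were seen in Sesn1 and Bax. Sesn1 averaged 15 ± 0.758 FPKM with NS102 and 17.7 ± 1.63 FPKM with vehicle, and its groups overlapped (log2 change -0.22, limma adjusted p = 0.0122). Bax averaged 120 ± 2.69 FPKM with NS102 and 132 ± 3.31 FPKM with vehicle (log2 change -0.13, limma adjusted p = 0.0163). The Bax call was lost without vehicle replicate 3 (adjusted p = 0.0551), and quantile normalization turned its sign (log2 change 0.15, limma adjusted p = 0.00435). Mdm2, at 14.7 ± 0.65 FPKM with NS102 and 13.6 ± 0.36 FPKM with vehicle, did not pass (limma adjusted p = 0.108), although every NS102 library was higher, and it passed with quantile normalization (adjusted p = 0.00531). Groups did not overlap for 8 of the 9 tested targets, as for 64.4% of all genes. Zmat3 was below the filter, at 0.686 ± 0.0796 FPKM with NS102 and 0.956 ± 0.0256 FPKM with vehicle.

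**Figure D2:**
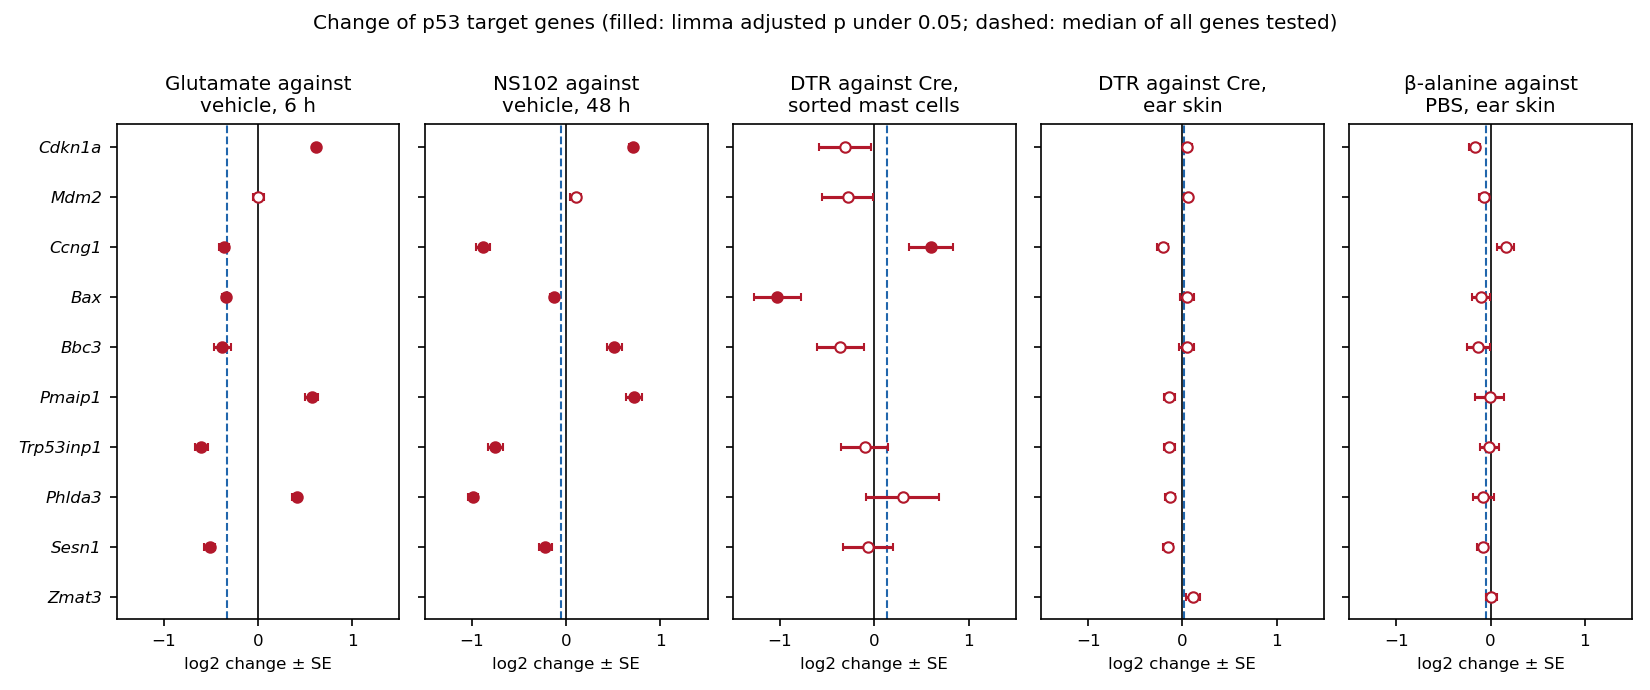
Log2 change (± SE, on the log2(FPKM + 1) scale, 4 libraries per group) of each p53 target gene in the 5 treatment comparisons, with filled points past the limma test and the dashed line at the median of all genes tested. Cdkn1a and Pmaip1 lie to the right of both lines with glutamate and NS102, Phlda3 lies on opposite sides, and no gene is past the test in skin.

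As deposited, Cdkn1a and Pmaip1 had the same sign with glutamate and NS102, and Phlda3 and Bbc3 opposite signs, in cultures that differ in time and medium as well as in the agent. For Bbc3 the sign with glutamate rests on the scaling, since the centred change (0.036) was not past the test. The difference of the effects, glutamate minus NS102, each against its own vehicle, was tested after the values of both comparisons were seen. It was past the threshold for 5 of 9 tested targets, where 75.9% of 8896 genes were. The differences on the log2 scale were 1.39 for Phlda3 (limma adjusted p = 4.36e-12), 0.51 for Ccng1 (8.42e-05), -0.89 for Bbc3 (5.85e-06), -0.29 for Sesn1 (0.00854) and -0.20 for Bax (0.00385). After centring, the differences of Phlda3 (adjusted p = 7.57e-13), Ccng1 (8.17e-08), Bbc3 (0.00241) and Bax (0.00639) still passed, that of Bax with the sign turned (0.086 relative to the median gene), and that of Sesn1 did not (0.0538). Centring also brought Cdkn1a, Mdm2, Pmaip1 and Trp53inp1 past the test (adjusted p 2.74e-05 to 0.0101). Of these, Cdkn1a (-0.09 as deposited, 0.20 relative to the median gene), Mdm2 (-0.10 and 0.19) and Pmaip1 (-0.15 and 0.13) turned sign as well.

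Under NS102, 3 of 14 tested other p53 targets rose, 7 fell and 4 did not pass, with a median log2 change of -0.25. Over all genes 30.8% rose and 39.7% fell. Gadd45a fell to 5.01, 4.65, 6.06 and 6.01 FPKM with NS102, against 12.2, 10.5, 9.63 and 9.72 FPKM with vehicle (log2 change -0.84, limma adjusted p = 7.36e-06). Dcxr (15.4 FPKM with NS102, 29.98 FPKM with vehicle) and Ei24 (20.4 FPKM with NS102, 37.1 FPKM with vehicle) fell as well. Trp53 averaged 17.8 ± 1.24 FPKM with NS102 and 16.1 ± 0.71 FPKM with vehicle and did not pass (limma adjusted p = 0.07). Of 9 tested regulators 5 rose and 2, Rchy1 (15.6 FPKM with NS102, 26.8 FPKM with vehicle) and Chek2 (4.01 FPKM with NS102, 6.05 FPKM with vehicle), fell. None of the 5 that rose met the rule for named genes, a higher mean of 5 FPKM and groups without overlap.

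Listed CDK inhibitors and G1 cyclins changed no more often than genes at large, of which 70.5% were past the test. Cdkn2b, the inhibitor p15, rose to 6.87 ± 0.486 FPKM with NS102, against 2.77 ± 0.483 FPKM with vehicle, while Cdkn2c, the inhibitor p18, fell to 3.93 ± 0.414 FPKM with NS102, against 8.85 ± 0.832 FPKM with vehicle. Cdk4 fell to 51.8 ± 1.71 FPKM with NS102, against 83.7 ± 2.74 FPKM with vehicle, and Pcna, the replication clamp, fell to 27.4 ± 1.73 FPKM with NS102, against 38.9 ± 1.56 FPKM with vehicle. In this list 2 of 10 tested genes rose, 4 fell and 4 did not pass, where 30.8% of all genes rose and 39.7% fell. The 5 proliferation markers summed to 2.48 to 2.98 FPKM with NS102 and 12.3 to 15.5 FPKM with vehicle, and their part in these changes was not tested. In the BCL2 family 3 of 9 tested genes rose and 4 fell, with Bid at 16.9 FPKM with NS102 and 25 FPKM with vehicle, Bad at 30.1 FPKM with NS102 and 37 FPKM with vehicle, and Bcl2l1 at 18.9 FPKM with NS102 and 22 FPKM with vehicle among those that fell.

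Vehicle cultures at 48 h and at 6 h differed in several targets, and time and medium cannot be told apart in this comparison. It uses the controls of the glutamate and NS102 comparisons again. Of 9 tested targets 5 were higher and 3 lower at 48 h, where 71.9% of 8467 genes were past the test, 34.2% higher and 37.7% lower. Bax had 132.8, 130.6, 136.1 and 128.3 FPKM at 48 h, against 60.2, 63.5, 68.3 and 63.4 FPKM at 6 h (log2 change 1.04, SE 0.046, limma adjusted p = 9.46e-11). Cdkn1a (log2 change 0.67), Phlda3 (0.67) and Ccng1 (0.63) were also higher at 48 h without overlap, and Trp53inp1 was higher with overlap (0.30, limma adjusted p = 0.00568). Bbc3 (-0.51), Pmaip1 (-0.45) and Mdm2 (-0.23) were lower at 48 h without overlap. These 7 of 9 tested targets without overlap compare with 64.5% of all genes. Sesn1 averaged 17.7 ± 1.63 FPKM at 48 h and 17.6 ± 1.16 FPKM at 6 h (limma adjusted p = 0.97).

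Trp53 was lower at 48 h (16.1 ± 0.71 FPKM) than at 6 h (33.8 ± 1.24 FPKM), while the tumour suppressor locus Cdkn2a was higher at 48 h (7.72 ± 1.05 FPKM) than at 6 h (1.46 ± 0.259 FPKM). The survival genes Bcl2 (10.1 FPKM at 48 h, 2.02 FPKM at 6 h) and Bcl2l1 (22 FPKM at 48 h, 12.3 FPKM at 6 h) were higher at 48 h, and the BH3-only gene Bcl2l11 was lower (1.83 FPKM at 48 h, 5.77 FPKM at 6 h). Cyclin genes Ccnd3 (105 FPKM at 48 h, 39.8 FPKM at 6 h) and Ccnd2 (74.1 FPKM at 48 h, 28.4 FPKM at 6 h) were higher as well. Of 16 tested other p53 targets 5 were higher and 6 lower, where 34.2% of all genes were higher and 37.7% lower. The median log2 change of these targets was -0.11. Among them, Sesn2 was higher (5.41 FPKM at 48 h, 2.95 FPKM at 6 h) and the phosphatase gene Ppm1d lower (3.02 FPKM at 48 h, 5.27 FPKM at 6 h). The 5 proliferation markers summed to 12.3 to 15.5 FPKM at 48 h and 41 to 45.3 FPKM at 6 h, and their part in these differences was not tested.

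**Figure D3:**
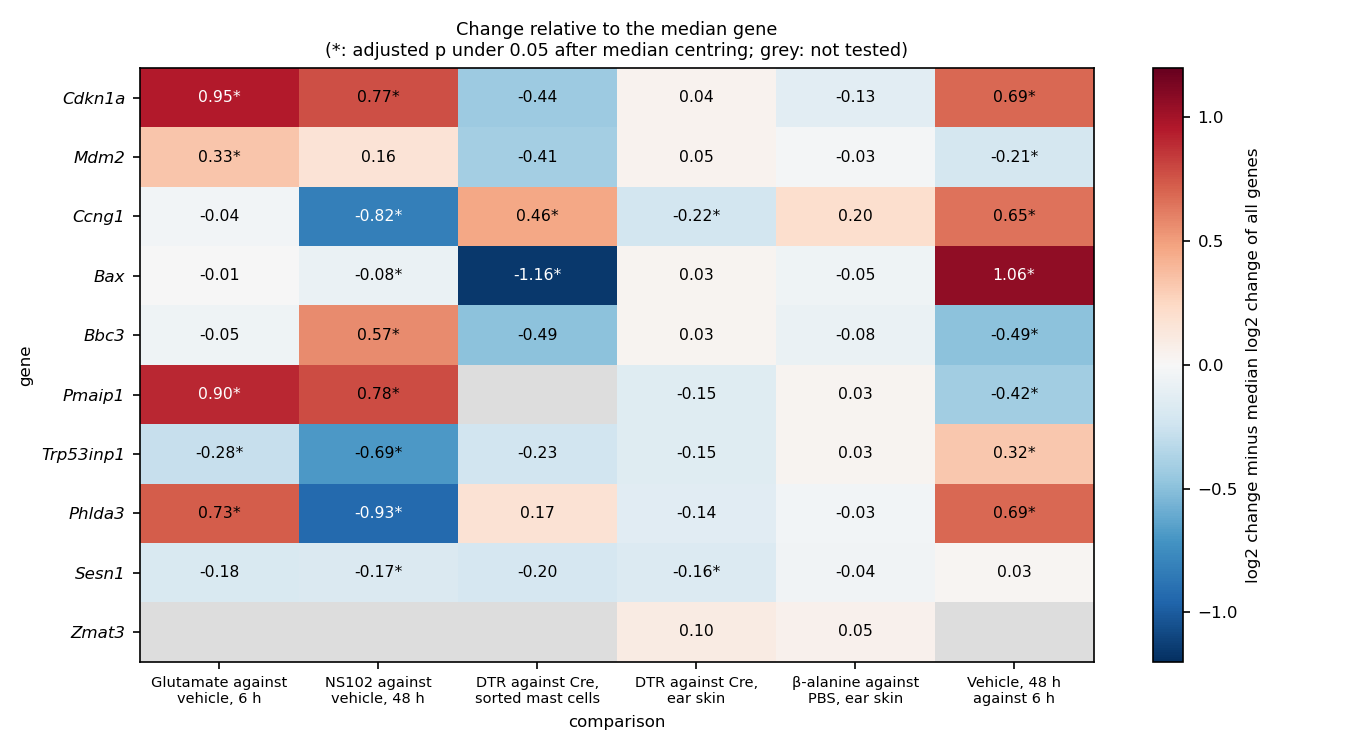
Log2 change of each p53 target gene minus the median log2 change of all genes tested, for 6 comparisons (colour and number), with a star where the gene was past the limma test after median centring and grey where it was below the filter. Cdkn1a stood 0.95 above the median gene with glutamate and 0.77 above it with NS102, and Bax 1.16 below it in sorted DTR cells.

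In mast cells sorted from DTR mice Bax was lower and Ccng1 higher than in those from Cre mice, and the other 6 tested targets did not pass. These 2 of 8 compare with 35.8% of 8871 genes past the test, 18.9% higher and 16.9% lower. Bax had 28.1, 25.2, 14.3 and 17.7 FPKM in DTR cells, against 41.5, 49.9, 30.7 and 54.2 FPKM in Cre cells. All DTR libraries lay below all Cre libraries (log2 change -1.03, SE 0.25, limma adjusted p = 0.00349), and the call held in each of 16 alternatives (adjusted p 0.000243 to 0.0348).

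Ccng1 had 10.8, 10.4, 7.38 and 8.42 FPKM in DTR cells, against 6.07, 6.63, 5.84 and 4.49 FPKM in Cre cells. The groups did not overlap, as for Bax and for 33.5% of all genes, yet the call was marginal (log2 change 0.60, SE 0.23, limma adjusted p = 0.0484). It was lost when any library but DTR replicate 3 was left out (adjusted p 0.0664 to 0.127). After centring the log2 change was again 0.60 and past the test (limma adjusted p = 0.00716), so the margin rests on the scaling too. Centred, 2313 of 8871 genes were higher and 1903 lower.

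The remaining targets overlapped between DTR and Cre cells, apart from Zmat3. Cdkn1a had 50.2, 27.3, 19.6 and 18.5 FPKM in DTR cells, against 31, 39.6, 38.2 and 25.6 FPKM in Cre cells (limma adjusted p = 0.42). Phlda3 had 1.64, 1.31, 1.28 and 0.45 FPKM in DTR cells, against 0.0501, 0.0225, 0.444 and 4.62 FPKM in Cre cells. The highest value came from Cre replicate 4. With it Phlda3 did not pass (limma adjusted p = 0.566), and without it Phlda3 was higher in DTR cells (log2 change 0.87, limma adjusted p = 3.73e-05). That library also stood apart in the 6 fibroblast markers, which summed to 379.6 FPKM there and to 1.64, 2.78 and 53.5 FPKM in the other Cre libraries, with Dcn at 197 FPKM and Lum at 140.2 FPKM. In DTR libraries the sum was 1.98 to 126 FPKM, and the part of these markers in the Phlda3 values was not tested. Pmaip1 and Zmat3 were below the filter, Pmaip1 at 0.642 ± 0.26 FPKM in DTR and 2 ± 1.24 FPKM in Cre cells and Zmat3 at 0.469 ± 0.111 FPKM in DTR and 0.121 ± 0.121 FPKM in Cre cells.

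Several p53 targets outside the 10 were nearly lost from sorted DTR cells. Btg2, an antiproliferative gene, had 0.0989, 1.45, 0.539 and 0.864 FPKM in DTR cells, against 31.1, 33.9, 31.4 and 66.1 FPKM in Cre cells (log2 change -4.57, limma adjusted p = 1.19e-10). Plk3, a stress-responsive polo-like kinase, had 0.944, 0.628, 0.23 and 0.232 FPKM in DTR cells, against 28.7, 15.9, 19.3 and 15.6 FPKM in Cre cells (log2 change -3.78, limma adjusted p = 3.83e-10). Perp (1.07 FPKM in DTR, 16.2 FPKM in Cre cells) and Gadd45a (4.51 FPKM in DTR, 14.7 FPKM in Cre cells) were lower too. Of the 26 other targets 15 were tested, and 2 rose, 8 fell and 5 did not pass, where 18.9% of all genes rose and 16.9% fell. Their median log2 change was -0.83, against 0.13 over all genes. Plk3 was under 1 FPKM in every DTR library and passed the filter through the Cre libraries alone. The count and the median thus rest partly on genes kept through the group where they were high.

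The survival gene Mcl1 fell to 8.6 ± 3.17 FPKM in DTR cells, against 28 ± 1.75 FPKM in Cre cells, while Bcl2 rose to 6.04 ± 1.05 FPKM in DTR cells, against 3.44 ± 1.13 FPKM in Cre cells. Among 10 tested CDK inhibitors and G1 cyclins 5 rose and 4 fell, where 18.9% of all genes rose and 16.9% fell. Ccnd1 (7.39 FPKM in DTR, 1.62 FPKM in Cre cells) and Cdk2 (12.9 FPKM in DTR, 5.74 FPKM in Cre cells) rose, and the inhibitors Cdkn2d (4.94 FPKM in DTR, 17.9 FPKM in Cre cells) and Cdkn1b, which encodes p27 (1.77 FPKM in DTR, 5.11 FPKM in Cre cells), fell. Trp53 averaged 9.58 ± 2.63 FPKM in DTR and 11 ± 1.89 FPKM in Cre cells and did not pass (limma adjusted p = 0.528), nor did Mdm4 (2.64 FPKM in DTR, 4 FPKM in Cre cells, limma adjusted p = 0.184).

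Markers of other cells moved in the same libraries. The 7 basophil markers summed to 151 to 243 FPKM in DTR and 928 to 1320 FPKM in Cre cells, and the 10 mast cell markers to 18020 to 29390 FPKM in DTR and 9770 to 14270 FPKM in Cre cells. Protease genes such as Cma1 (7542 FPKM in DTR, 3879 FPKM in Cre cells) carried the mast cell sum, while Fcer1a (289 FPKM in DTR, 574 FPKM in Cre cells), Gata2 (96.5 FPKM in DTR, 228 FPKM in Cre cells) and Hdc (291 FPKM in DTR, 381 FPKM in Cre cells) of the same list had lower means in DTR cells. Macrophage and monocyte markers summed to 6.85 to 17.4 FPKM in DTR and 41.3 to 51.2 FPKM in Cre cells, and proliferation markers to 4.81 to 12.1 FPKM in DTR and 0.661 to 2.33 FPKM in Cre cells. Red blood cell markers reached 0.465 FPKM in DTR cells, and in Cre cells 720 FPKM in replicate 2 alone and at most 2.09 FPKM in the other 3 libraries. Their part in the changes of p53 targets was not tested.

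**Figure D4:**
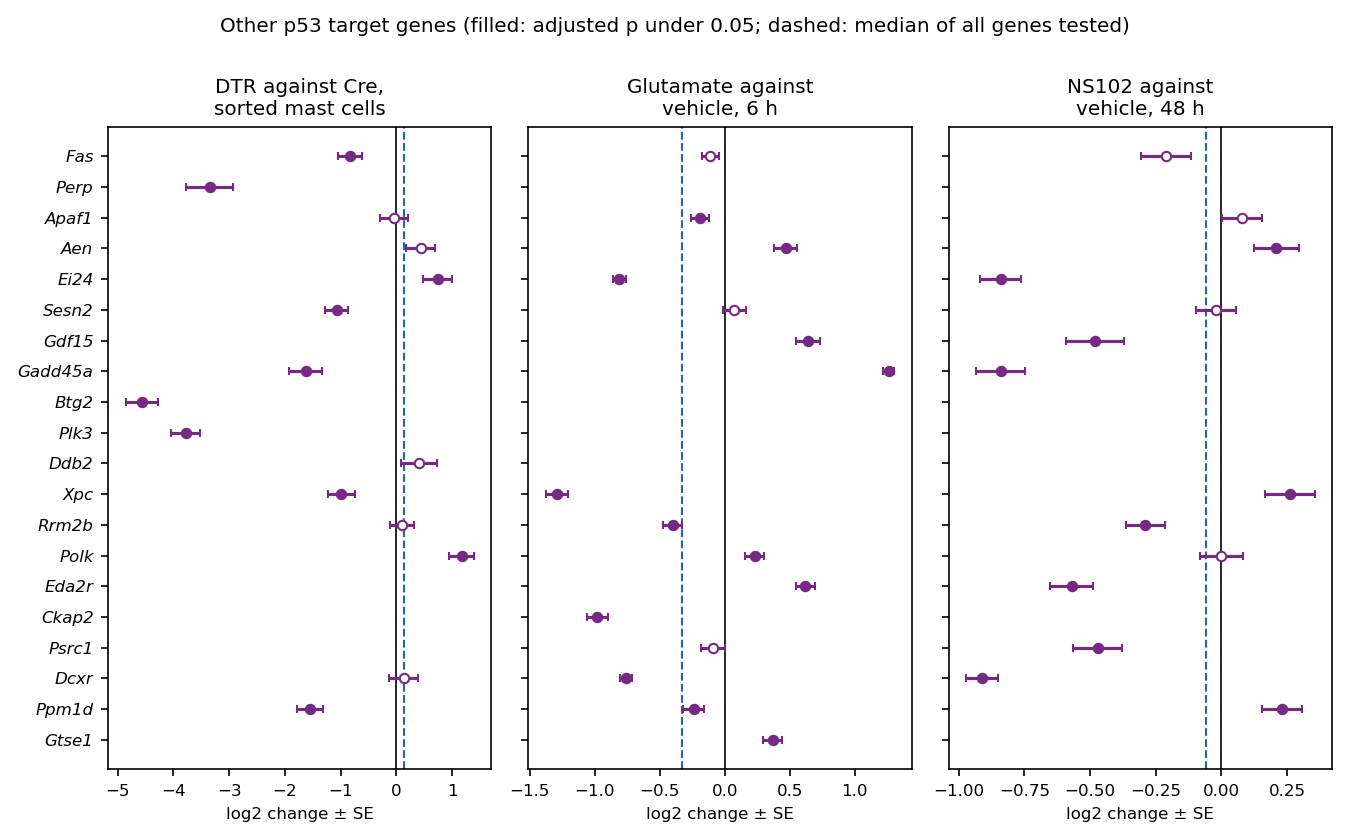
Log2 change (± SE, 4 libraries per group, horizontal scales differ between panels) of the 20 other p53 target genes that passed the filter in at least 1 of 3 mast cell comparisons, with filled points past the limma test and the dashed line at the median of all genes tested. Btg2 (-4.57), Plk3 (-3.78) and Perp (-3.35) stand far to the left in sorted DTR cells, and Gadd45a (1.26) far to the right with glutamate.

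In ear skin the same ablation moved no p53 target past the test. At an adjusted p under 0.05 limma called 0 of 10, against 13.6% of 12607 genes, and 5 of 10 had an unadjusted p under 0.05 (Ccng1, Pmaip1, Trp53inp1, Phlda3 and Sesn1, with negative log2 changes in each), as did 32.1% of all genes. Ccng1 had 14.2, 15.3, 13.5 and 13.9 FPKM in DTR skin, against 15.5, 15.6, 16.9 and 18.6 FPKM in Cre skin. All DTR libraries were below all Cre libraries, as for Pmaip1, and groups did not overlap for 21.4% of all genes. The log2 change of -0.21 missed the threshold narrowly (limma adjusted p = 0.0503, and 0.0329 after centring). Sesn1 averaged 21.3 ± 1.41 FPKM in DTR and 23.7 ± 1.03 FPKM in Cre skin (limma adjusted p = 0.0849, and 0.0446 after centring). Centred, these 2 of 10 targets were lower, as were 8.16% of all genes. Cdkn1a had 126.8, 122.4, 118.4 and 119.1 FPKM in DTR skin, against 115.5, 121.5, 110.2 and 122.1 FPKM in Cre skin, with overlapping groups (log2 change 0.053, limma adjusted p = 0.435). Quantile normalization brought it past the test (log2 change 0.14, limma adjusted p = 0.0369).

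Upstream of the targets, Trp53 had 29, 27.7, 28.1 and 24.8 FPKM in DTR skin, against 22.5, 22.6, 21 and 21.1 FPKM in Cre skin, a log2 change of 0.32 (SE 0.053, limma adjusted p = 0.00694). Mdm4, a partner of Mdm2 that restrains p53, rose with it, to 9.92 ± 0.409 FPKM in DTR skin, against 7.63 ± 0.851 FPKM in Cre skin (limma adjusted p = 0.0142). Of 15 tested regulators 3 rose and 0 fell, where 7.38% of all genes in this comparison rose and 6.25% fell. Cdkn2b (16.2 FPKM in DTR, 12 FPKM in Cre skin), Ccnd1 (28.1 FPKM in DTR, 24.2 FPKM in Cre skin) and Pcna (68 FPKM in DTR, 59.3 FPKM in Cre skin) were among 6 of 14 CDK inhibitors and G1 cyclins that rose, with 0 that fell, and 4 were higher after centring. Cdk4 was the fourth named, at 49.8 FPKM in DTR and 44.7 FPKM in Cre skin, and it was not past the centred test (limma adjusted p = 0.0796). Ei24 (55 FPKM in DTR, 60.7 FPKM in Cre skin) and Dram1 (6.27 FPKM in DTR, 7.39 FPKM in Cre skin) fell. They were the 2 of 25 other p53 targets that fell, close to the share of all genes, and 0 rose.

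Adipocyte markers summed to 185 to 217 FPKM in DTR and 425 to 522 FPKM in Cre skin, and skeletal muscle markers to 376 to 528 FPKM in DTR and 779 to 1789 FPKM in Cre skin. Mast cell markers summed to 202 to 245 FPKM in DTR and 69.1 to 90.2 FPKM in Cre skin. Their part in the skin values was not tested.

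The effect of ablation differed between sorted cells and skin for Ccng1 and Bax when the difference itself was tested over 16 libraries. The log2 effect in sorted cells minus that in skin was 0.81 for Ccng1 (SE 0.18, limma adjusted p = 0.00365) and -1.08 for Bax (SE 0.28, limma adjusted p = 0.00871). These are 2 of 10 targets, against 27.7% of 13153 genes. Without sorted Cre replicate 4 the count was 4, with Pmaip1 (adjusted p = 0.00537) and Phlda3 (adjusted p = 0.0038) added. This fit takes a common spread per gene for skin and sorted cells, although sorted cells varied more. For Ccng1 its SE was below the 0.23 of the sorted cells alone, so the adjusted p of that difference may be too small.

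In skin given β-alanine no p53 target was past the test, and few genes were at all. Limma called 0 of 10 targets and 0.212% of 12709 genes, and 1 target, Cdkn1a, had an unadjusted p under 0.05, as did 9.81% of all genes. Cdkn1a had 139.4, 142.8, 136.7 and 130.8 FPKM in β-alanine skin, against 156.3, 163.7, 147.9 and 153.3 FPKM in PBS skin. Every β-alanine library lay below every PBS library, but the log2 change of -0.17 (SE 0.058) did not pass (limma adjusted p = 0.384). Groups of 6.43% of all genes did not overlap. Sesn1, at 21.6 ± 1.16 FPKM with β-alanine and 22.9 ± 0.214 FPKM with PBS, also lay below throughout (limma adjusted p = 0.673), and the other 8 targets overlapped. Trp53 (28 ± 3.57 FPKM with β-alanine, 32.9 ± 2.87 FPKM with PBS) and Mdm4 (6.87 ± 0.83 FPKM with β-alanine, 5.99 ± 0.441 FPKM with PBS) did not pass, nor did any gene of the other lists. Mast cell markers summed to 5.08 to 8.51 FPKM with β-alanine and 213 to 261 FPKM with PBS, and 5 of the 10 averaged at least 1 FPKM with β-alanine and all 10 with PBS. The protease genes carried the difference in the sum, with Mcpt4 at 1.17 FPKM with β-alanine and 83.2 FPKM with PBS, while Kit was at 1.58 FPKM with β-alanine and 2.34 FPKM with PBS. Their part in the skin values was not tested.

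Sorted Cre mast cells set against whole Cre skin describe where the transcripts are found, with the controls of both ablation comparisons. As deposited, 7 of 10 targets were lower in sorted cells, 1 was higher and 2 did not pass, where 89.8% of 12693 genes were past the test, 80% lower and 9.85% higher, around a median log2 change of -1.42. Bax was the 1 higher, at 44.1 ± 10.4 FPKM in sorted cells and 24.5 ± 0.981 FPKM in skin (log2 change 0.79, limma adjusted p = 0.00143), or 2.21 above the median gene. Phlda3, at 1.29 ± 2.23 FPKM in sorted cells and 59.3 ± 3.92 FPKM in skin, lay 3.71 below the median gene, and Zmat3, at 0.121 ± 0.121 FPKM in sorted cells and 5.23 ± 0.284 FPKM in skin, 1.06 below it. After centring Mdm2 (0.96), Bbc3 (0.93) and Pmaip1 (0.99) were higher in sorted cells, and Cdkn1a (-0.24, limma adjusted p = 0.194) and Ccng1 (0.16, limma adjusted p = 0.327) did not pass, while Phlda3, Zmat3, Sesn1 and Trp53inp1 stayed lower and Bax stayed higher. Centred, 40.4% of all genes were higher and 32.7% lower.

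The epithelial genes among other p53 targets marked the same divide. Sfn (0.629 FPKM in sorted cells, 400.4 FPKM in skin) and Epha2 (0.0279 FPKM in sorted cells, 9.22 FPKM in skin) were lower in sorted cells, as was Trp63, the p53 relative that specifies stratified epithelium (0.03 FPKM in sorted cells, 64.3 FPKM in skin). Bid, a BH3-only gene, was higher in sorted cells (23.6 FPKM) than in skin (3.43 FPKM). Of 25 tested other p53 targets 21 were lower and 1 higher as deposited, and 8 lower and 13 higher after centring, so the count rests on the scaling. Over all genes 80% were lower and 9.85% higher as deposited, and 32.7% lower and 40.4% higher after centring.

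Over the 10 group means, the genes whose log2 levels followed Cdkn1a most closely, among 9663 genes with at least 5 FPKM in a group, were Cd24a (Pearson r = 0.9682), Tmem248 (0.9614), Ppa1 (0.9585), Bmp2k (0.9576) and Meis1 (0.9571). None of these 5 is among the p53 targets named here. The 10 means share tissue, culture and total level between groups, so the coefficients are descriptions.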

How the data were processed

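The values are FPKM, which the authors derived through STAR and Cufflinks against mm9, per the submitters' processing notes; versions, annotation and any further scaling are not given in the sources used here. No unit stands in the header, and the deposited values are decimals whose totals differ between libraries. Levels were taken as log2(FPKM + 1). For each comparison of 4 against 4 libraries, genes reaching 1 FPKM in 4 or more libraries were fitted with limma 3.58.1 in R 4.3.3 (trend, two-sided), with Benjamini-Hochberg adjustment over all genes tested and a threshold of 0.05. Fitted changes of low genes are understated by the added 1. Relative changes subtract the median log2 change of all genes tested, and centred fits subtract each library's median first. The ablation effects in sorted cells and skin were compared by an interaction term. The fits were tested on simulated data.

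The members and the gene lists were chosen with earlier results of these data known. All members are named whatever their p. Of the other lists, up to 4 genes per comparison could be named in order of p, among those past the test whose higher mean reached 5 FPKM and whose groups did not overlap, plus Trp53 and Mdm4 where they passed the filter; fewer are given for comparisons between control groups. For Cdkn1a, the 5 genes with the highest Pearson correlation of group means were taken, leaving out predicted genes and small RNAs. Promoter sequences are from RefSeq (GRCm38.p6) and gene positions from the deposited table (mm9), and the builds were not joined. Summaries and plots were made in Python 3.11.15 (numpy 2.4.6; pandas 2.3.3; matplotlib 3.10.9). Alternatives were quantile normalization, median centring, dropping the trend, a filter at 5 FPKM or none, a pseudocount of 5 or 0.1, the replicate number as a block, and leaving out each library.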

Additional observations from a re-analysis of the deposited data

Results flagged for a closer look

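Among 100 combinations of gene and group, 8 had 1 library whose gap to its nearest neighbour was larger, as a share of the range of the group, than Dixon's critical value allows at the 95% level. Chance flags about 1 in 20 such groups. Phlda3 was at 4.62 FPKM in sorted Cre replicate 4, against 0.0225 to 0.444 FPKM in the other 3 libraries, and it decided whether Phlda3 passed. Bax stood at 26 FPKM in Cre skin replicate 4, Pmaip1 at 1.65 FPKM in β-alanine skin replicate 1 and Trp53inp1 at 10.1 FPKM in PBS skin replicate 2. In culture, Trp53inp1 stood at 3.51 FPKM in glutamate replicate 4 and Sesn1 at 16.1 FPKM in NS102 replicate 3. The third replicate of the 6 h vehicle gave the lowest Pmaip1, at 2.62 FPKM, and the lowest Zmat3, at 0.794 FPKM.

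The log2 effect of ablation on Ccng1 was 0.60 in sorted cells and -0.21 in skin, a difference of 0.81 (limma adjusted p = 0.00365). That on Bax differed by -1.08 (limma adjusted p = 0.00871). In each, the difference itself was tested, with a common spread per gene for skin and sorted cells. Ccng1 was higher in 4 of 4 sorted DTR libraries than in any sorted Cre library. It was lower in 4 of 4 DTR skin libraries than in any Cre skin library. Groups did not overlap for 33.5% of all genes in sorted cells and 21.4% in skin. Taken alone and as deposited, the Ccng1 change was marginal in sorted cells (limma adjusted p = 0.0484) and did not pass in skin (limma adjusted p = 0.0503). After centring both were past the test (limma adjusted p = 0.00716 in sorted cells and 0.0329 in skin).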

How the results depend on the processing

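In ablated skin the count of p53 targets past the test, 0, became 1 with a filter of 5 FPKM (Ccng1), 2 with median centring (Ccng1 and Sesn1) and 2 with quantile normalization (Ccng1 and Cdkn1a), and leaving out 1 library gave 0 to 1. In sorted cells the count of 2 became 1 with a pseudocount of 5 or a filter of 5 FPKM, and 1 to 2 without 1 library. With glutamate the count of p53 targets past the test, 8, became 5 under median centring, where Ccng1 (0.049), Bax (0.076) and Bbc3 (0.036) turned positive, Sesn1 lost its call and Mdm2 gained one, and it was 8 whichever library was left out. Under NS102, quantile normalization turned Bax to 0.15 and brought Mdm2 past the test. For sorted cells against skin, median centring turned Mdm2 to 0.96, Ccng1 to 0.16, Bbc3 to 0.93 and Pmaip1 to 0.99, and quantile normalization gave 0.82, 0.055, 0.93 and 1.15; Cdkn1a lost its call with centring alone. The ablation interaction count of 2 became 4 without sorted Cre replicate 4. The cause of these shifts was not tested, apart from the scaling that centring removes by construction. Cdkn1a kept its rise with glutamate (log2 change 0.59 to 1.03) and NS102 (0.69 to 1.02) in all 16 alternatives.

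Over all genes, ablated skin gave 779 to 1530 calls without 1 library, against 1719. A filter of 5 FPKM gave 3962 calls with glutamate against 6580, 3757 with NS102 against 5902, 3888 for the vehicle times against 6087 and 1897 in sorted cells against 3173, with fewer genes tested. Centring moved the genes called higher with glutamate to 3703 of 6314, against 1403 of 6580.

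The labels give groups the same replicate numbers. Same-numbered libraries did not deviate together in all 4 pairs of any comparison (correlations -0.247 to 0.463). In ablated skin 3 of 4 DTR libraries correlated best with their own number, and in sorted cells against skin 0 of 4 did. Weak pairing could miss such a bar, so the check cannot decide whether samples were paired. The main fits took them as unpaired. With the replicate block the counts of targets past the test were 0 in ablated and β-alanine skin, 2 in sorted cells, 8 with glutamate, NS102 and the vehicle times, 9 for sorted cells against skin and 3 for the ablation interaction.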
